A study of Caenorhabditis elegans with 30 samples.

Results

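The effect of losing *hcf-1* was measured in the somatic tissues of day 3 adults, on control bacteria and on bacteria that feed the worms *hda-1* double-stranded RNA. The comparison took 8 of the 30 libraries of the study, chosen by their labels for genotype, bacteria and day. The *hcf-1(-)* mutants were *glp-1(e2141);hcf-1(pk924)* double mutants, and the controls were *glp-1(e2141)* single mutants. Each genotype gave 2 libraries on *hda-1* RNAi and 2 on L4440, the empty vector (EV) bacteria. All worms carried *glp-1(e2141)*, a temperature-sensitive allele of the Notch receptor that keeps the germline dividing, and were raised on EV at a temperature at which they make almost no germ cells. Each library held RNA from many pooled whole hermaphrodites, so a lower level can come from fewer cells of a type or from less RNA per cell, and these cannot be told apart. Day 1 adults of each population were divided between the bacteria, so the *hda-1* RNAi worms at day 3 had been exposed since day 1 of adulthood. The libraries of 1 genotype with the same replicate number therefore share a population. The genotypes were compared over 2 *hcf-1(-)* and 2 control populations, after the reads of the libraries of each population were added up. Each population was grown from embryos taken off stock plates of its strain, and the study calls its replicates biological. Whether the replicates were started apart is not given in the sources used here, and p-values measure only the spread between these populations. The third genotype, *glp-1(e2141);set-26(tm2467)*, and the EV libraries of days 1 and 12 were used only to show where the day 3 effect of *hcf-1* differs or, for the third genotype, is shared.

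HCF-1 is the worm form of host cell factor 1, a protein that has no DNA binding domain of its own and joins transcription factors and histone-modifying enzymes at promoters. In *C. elegans* it is known to bind the FOXO factor DAF-16 and to hold back part of its target genes, and it also restrains the stress response factor SKN-1. Worms without *hcf-1* live long and resist several stresses. HDA-1 is a histone deacetylase of the HDAC1 type, and SET-26 is a SET domain protein that reads a histone mark of active promoters.

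The *hcf-1* gene (chromosome IV, bases 7770770 to 7774275 of WBcel235) had 17 and 10 reads on *hda-1* RNAi and 21 and 11 reads on EV in *hcf-1(-)* mutants, against 74 and 30 reads on *hda-1* RNAi and 54 and 49 reads on EV in controls. Its level was lower in all 4 mutant libraries (log2 fold change -2.25 ± 0.37, adjusted p = 0.00324). The reads come from the ends of transcripts, and whether that end lies outside the *pk924* deletion is not given in the sources used here. *hda-1* read 1043 and 688 CPM on *hda-1* RNAi and 21.1 and 22.3 CPM on EV in *hcf-1(-)* mutants, against 226 and 1282 CPM on *hda-1* RNAi and 19.02 and 22.9 CPM on EV in controls. Its level was higher on *hda-1* RNAi than on EV in each population, so these reads cannot show whether the knockdown worked. The study reports less of the encoded protein in germline-less worms at the same age after this RNAi. The level of *hda-1* reads did not pass the test between the genotypes (log2 fold change 0.14 ± 0.55, adjusted p = 0.901). The sums tested came mostly from the *hda-1* RNAi libraries, so this test cannot compare the genotypes on EV. With 1 population left out the change ranged from -0.61 to 1.76. The source of the added reads was not tested. The 8 libraries held 7680222 to 10147124 reads on genes, of which 10.7% to 19.4% fell on the 10 most abundant genes. Values are given as CPM, reads per 1000000 after scaling by TMM (trimmed mean of M-values), and a fold change is the *hcf-1(-)* level over the control level on the log2 scale, with its standard error. RNA of sperm genes was scarce in both genotypes. The sperm protein (*msp*) genes summed to 3.04 to 6.18 CPM in the mutant libraries and 0.905 to 1.65 CPM in the control libraries, and 7 of 31 had no read in any library.

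Of 13586 genes tested, 944 were higher and 1054 were lower in *hcf-1(-)* mutants at an adjusted p under 0.05 (quasi-likelihood F-test of edgeR, adjusted after Benjamini and Hochberg). This is 14.7% of the genes, 6.95% higher and 7.76% lower. The genotypes did not overlap over the 8 libraries for 26.6% of all genes tested and for 1902 of the 1998 called. The middle gene did not move (median log2 fold change 0.01 over all genes tested), and the called genes had a median change of 1.08 in either direction. Large changes were more often increases, with 300 genes over 4-fold higher and 110 over 4-fold lower. Genotype set the libraries apart more than bacteria or population did. The first principal component of the 500 most variable genes held 77.8% of their variance, and 99.2% of that component lay between the genotypes. The number of calls depended on both control populations. It was 1992 without *hcf-1(-)* population 1 and 2999 without population 2, but 738 without control population 1 and 815 without control population 2, where the 1 control sum left is assumed to vary as the *hcf-1(-)* sums do. For the gene groups with at least 4 called genes, the counts of these 4 fits are given where a count moved by more than 1.5 times.

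**Figure D1:**
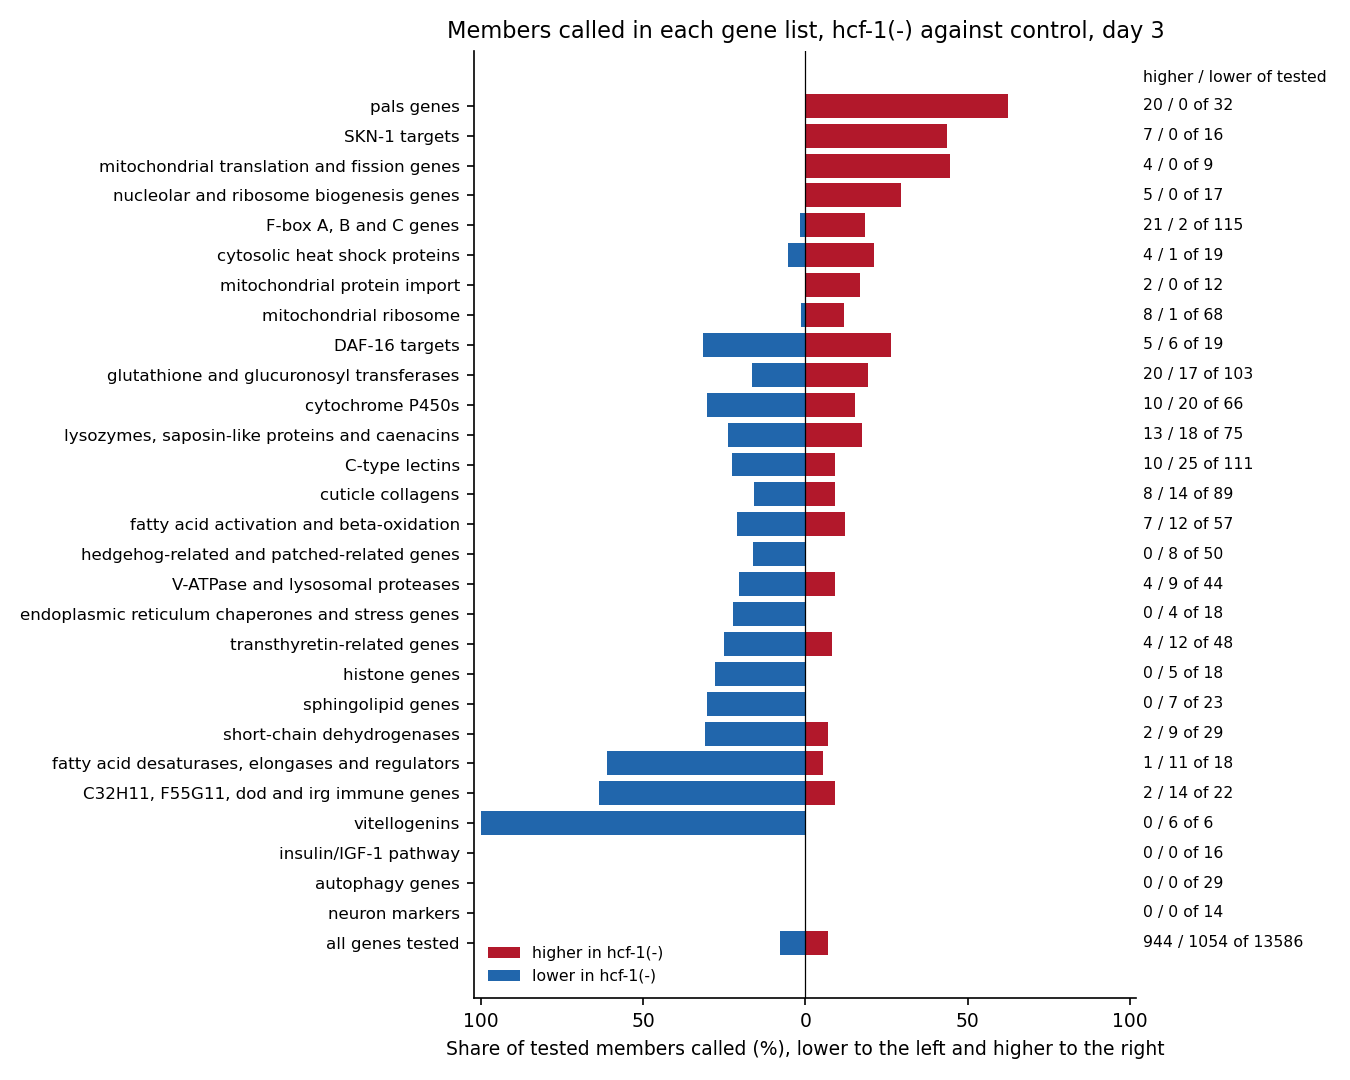
Share of tested list members called higher (red, right) or lower (blue, left) in *hcf-1(-)* mutants than in controls at day 3, in percent. The lists drawn are a selection from 54, with the counts at the right and all genes tested in the lowest row. Lists left out include some under the share of all genes, such as the nuclear hormone receptors (4.55% higher and 2.27% lower). The vitellogenin list lies wholly on the lower side with 6 of 6 members and the *pals* list on the higher side with 20 of 32, against 6.95% higher and 7.76% lower over all genes.

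Genes were ranked among those called, with no overlap between the genotypes and an average of at least 50 reads per library. Those with the largest increases were close to silent in controls. The gene *rab-11.2*, which encodes a small GTPase of the Rab11 family of membrane traffic proteins, stood at 57.9 and 51.8 CPM on *hda-1* RNAi and 102.1 and 47.1 CPM on EV in *hcf-1(-)* mutants, against 0.353 and 0.258 CPM on *hda-1* RNAi and 0.284 and 0.425 CPM on EV in controls (log2 fold change 7.52 ± 0.35, adjusted p = 1.81e-06). The claudin-like gene *clc-32* followed (log2 fold change 7.29 ± 0.33, adjusted p = 1.81e-06), with 44.3 to 76.5 CPM in the 4 *hcf-1(-)* libraries and 0 to 0.517 CPM in the 4 control libraries. All 4 mutant libraries of both genes lay far above all 4 control libraries. The short-chain acyl-CoA dehydrogenase gene *acdh-1*, an enzyme of branched-chain amino acid and propionate breakdown, had 243 and 369.9 CPM on *hda-1* RNAi and 477 and 502 CPM on EV in *hcf-1(-)* mutants, against 0.942 and 6.72 CPM on *hda-1* RNAi and 3.83 and 2.55 CPM on EV in controls (log2 fold change 6.80 ± 0.32, adjusted p = 1.81e-06). Among the 12 highest genes were also *pals-29*, the C-type lectin gene *clec-17* (6.23 ± 0.39), the receptor gene *sru-40* (5.60 ± 0.36), the insulin-like peptide gene *ins-35* (4.99 ± 0.27), a further claudin-like gene *clc-11* (4.50 ± 0.20), and *F07E5.9*, *C54F6.17*, *C30H6.12* and *C46A5.1*, with changes from 4.58 to 6.0. The control libraries had 4 reads of *pals-29* in all and the mutant libraries 529, a ratio of 126 (95% counting interval 49.1 to 466).

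The largest decreases were of genes that all control libraries expressed. *M199.9* stood at 1.43 and 2.86 CPM on *hda-1* RNAi and 0.569 and 0.781 CPM on EV in *hcf-1(-)* mutants, against 195 and 141 CPM on *hda-1* RNAi and 227 and 134 CPM on EV in controls (log2 fold change -6.99 ± 0.31, adjusted p = 1.81e-06). The invertebrate-type lysozyme gene *ilys-5* had 17.1 and 18.7 CPM on *hda-1* RNAi and 9.79 and 13.2 CPM on EV in *hcf-1(-)* mutants, against 608 and 677 CPM on *hda-1* RNAi and 708 and 621 CPM on EV in controls (log2 fold change -5.49 ± 0.17, adjusted p = 3.28e-07). The lectin gene *clec-190* (-5.33 ± 0.24) and the insulin-like peptide gene *ins-19* (-4.89 ± 0.18) fell as well. *ins-19* had 11.5 to 14.6 CPM in the 4 *hcf-1(-)* libraries and 328 to 433 CPM in the 4 control libraries. The remaining genes of the 12 lowest were the cytochrome P450 genes *cyp-14A3* (-4.85 ± 0.23) and *cyp-35A3* (-4.34 ± 0.34), the nematode-specific peptide gene *nspc-17* (-3.66 ± 0.20), the carboxylesterase gene *cest-10* (-3.39 ± 0.25), and *C36C5.12*, *R09E12.9*, *Y17D7B.2* and *F28H7.3*, with changes from -4.69 to -3.23. Each of these 24 genes was called in the same direction under every alternative that tested it and did not leave out a single library.

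Yolk genes fell as a whole family. Vitellogenins are the yolk lipoproteins that the intestine makes for oocytes, and all 6 genes were lower in *hcf-1(-)* mutants, with a median change of -2.77. The most abundant reads of the family came from *vit-6*, with 15905 and 19708 CPM on *hda-1* RNAi and 12732 and 16517 CPM on EV in *hcf-1(-)* mutants, against 33656 and 42218 CPM on *hda-1* RNAi and 44172 and 48051 CPM on EV in controls (log2 fold change -1.39 ± 0.15, adjusted p = 0.000229). The largest fall was that of *vit-5*, with 5070 and 5443 CPM on *hda-1* RNAi and 2204 and 3935 CPM on EV in *hcf-1(-)* mutants, against 28250 and 35034 CPM on *hda-1* RNAi and 28460 and 28856 CPM on EV in controls (log2 fold change -2.87 ± 0.15, adjusted p = 3.02e-06). *vit-1* (-2.85 ± 0.33), *vit-3* (-2.85 ± 0.23) and *vit-4* (-2.68 ± 0.27) changed by about as much as *vit-5*, and *vit-2* (-1.5 ± 0.17) by about as much as *vit-6*. No mutant library reached the lowest control library for any of the 6 genes, and all 6 were called in each fit that left out a population. Some *vit* genes are near copies of each other, and reads that fit more than 1 place were dropped by the authors, so part of their reads is missing in both genotypes.

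Most genes of fatty acid synthesis fell too. Of 18 tested desaturases, elongases and their regulators, 1 rose, 11 fell and 6 were not called (61.1% lower; median -0.70). Counts for the desaturase and elongase list were 9 and 11 decreases without *hcf-1(-)* population 1 or 2 and 4 decreases each without control population 1 or 2. The enzymes that build long polyunsaturated fatty acids all fell: *fat-2* (-1.2 ± 0.15), *fat-1* (-1.19 ± 0.24), *fat-4* (-1.23 ± 0.15) and *fat-3* (-1.19 ± 0.14), and so did the elongase gene *elo-5* (-1.13 ± 0.22). The delta-9 desaturases, which make monounsaturated fatty acids, went apart. *fat-7* stood at 84.0 and 49.4 CPM on *hda-1* RNAi and 56.2 and 49.98 CPM on EV in *hcf-1(-)* mutants, against 3.53 and 2.71 CPM on *hda-1* RNAi and 3.83 and 0.991 CPM on EV in controls (log2 fold change 4.41 ± 0.30, adjusted p = 1.73e-05). Its near relative *fat-6* had 407 and 499 CPM on *hda-1* RNAi and 341 and 755 CPM on EV in *hcf-1(-)* mutants, against 1059 and 1266 CPM on *hda-1* RNAi and 1056 and 1079 CPM on EV in controls (log2 fold change -1.16 ± 0.22, adjusted p = 0.00671), and *fat-5* fell too (-0.72 ± 0.19). Thus *fat-7* was higher in every mutant library and *fat-6* was lower in every one. *fat-1*, *elo-5*, *fat-6* and *fat-5* lost their calls without at least 1 control population.

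**Figure D2:**
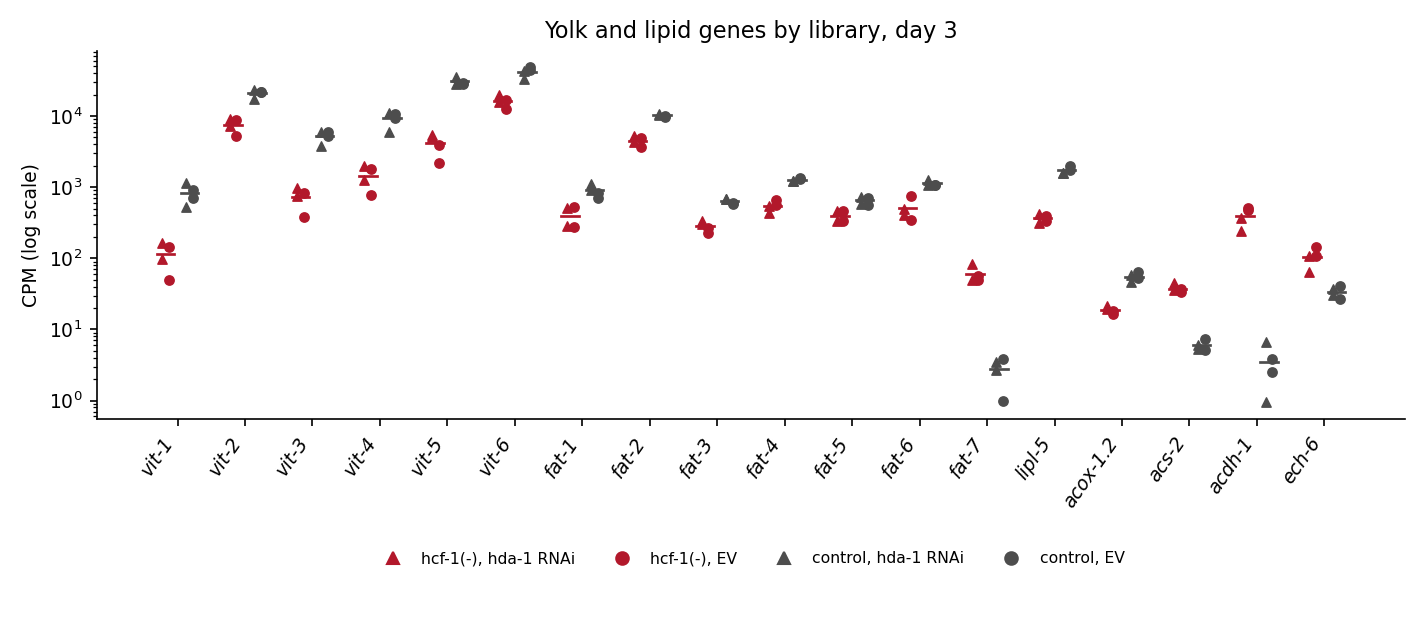
CPM (log axis) of yolk and lipid genes in each day 3 library, with *hcf-1(-)* mutants in red to the left of controls in grey, triangles for *hda-1* RNAi, circles for EV and bars for the mean of the 2 populations. The genotypes do not overlap for any gene shown, and *fat-7*, *acs-2*, *acdh-1* and *ech-6* are the genes that lie higher in the mutants.

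Genes of fat breakdown moved in both directions. Of 57 genes of fatty acid activation and beta-oxidation, 7 rose and 12 fell (12% and 21%; median -0.18). For the beta-oxidation list there were 7 and 8 increases with 16 and 13 decreases without *hcf-1(-)* population 1 or 2 and 4 and 5 increases with 6 and 5 decreases without control population 1 or 2. The genes that fell most were acyl-CoA oxidases of the peroxisome, which also shorten the side chains of the ascaroside pheromones, namely *acox-1.2* (-1.58 ± 0.16), *acox-1.4* (-1.3 ± 0.17) and *acox-1.1* (-1.19 ± 0.18). Beside *acdh-1*, the well-expressed genes that rose included *acs-2* (2.65 ± 0.21), an acyl-CoA synthetase of mitochondrial beta-oxidation, and *ech-6* (1.64 ± 0.22), an enoyl-CoA hydratase. With *acdh-1*, *ech-6* belongs to the propionate shunt, a route that clears propionate when vitamin B12 is short. The other genes of the shunt were looked up after these values were seen. *hach-1* (log2 fold change 1.99 ± 0.24, adjusted p = 0.000592) and *hphd-1* (log2 fold change 1.89 ± 0.16, adjusted p = 7.12e-05) were higher, and *alh-8* had 1141 to 1317 CPM in the 4 *hcf-1(-)* libraries and 925 to 1056 CPM in the 4 control libraries (log2 fold change 0.26 ± 0.13, adjusted p = 0.218). The lysosomal lipase genes *lipl-5* (-2.25 ± 0.16), *lipl-2* (-1.27 ± 0.16) and *lipl-1* (-1.11 ± 0.17) were lower and the fasting-induced lipase gene *fil-1* (1.01 ± 0.23) was higher. *lipl-5* had 315 and 426 CPM on *hda-1* RNAi and 331 and 397 CPM on EV in *hcf-1(-)* mutants, against 1557 and 1594 CPM on *hda-1* RNAi and 1997 and 1747 CPM on EV in controls. *fil-1* lost its call without at least 1 control population.

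Of 23 sphingolipid genes none rose and 7 fell (30.4%), among them the acid sphingomyelinases *asm-3* (-3.14 ± 0.19) and *asm-2* (-0.91 ± 0.16) and the acid ceramidase *asah-1* (-0.89 ± 0.17). Calls in the sphingolipid list were 1 and 0 increases with 6 and 9 decreases without *hcf-1(-)* population 1 or 2, and no increase with 3 and 4 decreases without control population 1 or 2. Short-chain dehydrogenases had 2 increases and 9 decreases among 29 (31% lower), with *dhs-26* (-2.43 ± 0.16) and *dhs-20* (-1.90 ± 0.16) the lowest of those well expressed. The dehydrogenase list gave 1 and 2 increases with 9 decreases each without *hcf-1(-)* population 1 or 2, and no increase with 5 and 6 decreases without control population 1 or 2. In phosphatidylcholine synthesis and its methyl supply, *pmt-1* (-0.93 ± 0.14), *pcyt-1* (-0.55 ± 0.16) and the cystathionine gamma-lyase gene *cth-2* (-0.77 ± 0.14) fell, 3 of 18 genes. Among 9 fatty acid binding proteins only *lbp-7* was called (-0.67 ± 0.16), which is 11.1% lower against 7.76% of all genes. The gene *daf-36*, whose enzyme takes the first step from cholesterol to the steroid hormone dafachronic acid, fell (log2 fold change -0.87 ± 0.20, adjusted p = 0.0146). It was the only called gene of the 17 regulators of germline-loss longevity (5.88% lower, under the 7.76% of all genes). *asah-1*, *cth-2*, *lbp-7* and *daf-36* lost their calls without at least 1 control population. *pcyt-1* lost its call without at least 1 population of each genotype. *pcyt-1* lost its call in the *hda-1* RNAi libraries alone. *pcyt-1* and *lbp-7* lost their calls in the EV libraries alone.

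Many genes of the intracellular pathogen response rose. In worms infected by microsporidia or the Orsay virus, *pals* genes and many F-box genes are induced together. Of 32 tested *pals* genes 20 rose and none fell (62.5% higher; median 1.5). Counts for the *pals* list were 14 and 16 increases with 0 and 2 decreases without *hcf-1(-)* population 1 or 2 and 13 and 12 increases with no decrease without control population 1 or 2. *pals-14* stood at 345 and 217 CPM on *hda-1* RNAi and 282 and 194 CPM on EV in *hcf-1(-)* mutants, against 36.3 and 24.7 CPM on *hda-1* RNAi and 30.5 and 31.996 CPM on EV in controls (log2 fold change 3.05 ± 0.22, adjusted p = 2.73e-05), and *pals-6* (1.66 ± 0.17) and *pals-32* (3.59 ± 0.34) rose as well. The reporter gene of this response, *pals-5*, had few reads in any library (1.25 to 2.69 CPM in the 4 *hcf-1(-)* libraries and 0.118 to 0.566 CPM in the 4 control libraries; log2 fold change 2.55 ± 0.53, adjusted p = 0.0106). *pals-11* had 79 reads in the mutant libraries and none in the control libraries, which puts it at least 25.2-fold higher, with a floor of 3 reads over the control libraries. The opposing regulators of the response, *pals-22* (log2 fold change 0.25 ± 0.30, adjusted p = 0.63) and *pals-25* (log2 fold change -0.54 ± 0.30, adjusted p = 0.276), did not pass the test. Mutant population 1 lay above population 2 on both bacteria for *pals-14*, *pals-32* and *pals-29*. F-box genes of the A, B and C classes, which encode substrate receptors of ubiquitin ligases, had 21 increases and 2 decreases among 115 tested (18.3% higher; median 0.38). For the F-box list there were 13 and 19 increases with 2 and 6 decreases without *hcf-1(-)* population 1 or 2 and 10 and 9 increases with 0 and 1 decreases without control population 1 or 2. *fbxa-163* (1.37 ± 0.20) and *fbxa-158* (2.99 ± 0.32) rose, and *fbxa-15* (-1.44 ± 0.24) fell. *pals-5* and *fbxa-15* lost their calls without at least 1 control population. *pals-5* and *fbxa-15* lost their calls in the EV libraries alone.

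Genes of the response to bacteria moved in both directions, more of them down. In the group of CUB-like and other infection response genes (the C32H11 and F55G11 clusters, *dod* and *irg* genes), 2 of 22 rose and 14 fell (63.6% lower; median -0.79). Calls in the infection response list were 2 increases each with 14 and 16 decreases without *hcf-1(-)* population 1 or 2, and 1 increase each with 6 and 7 decreases without control population 1 or 2. *dod-23* stood at 177 and 199 CPM on *hda-1* RNAi and 117 and 139 CPM on EV in *hcf-1(-)* mutants, against 1135 and 1097 CPM on *hda-1* RNAi and 999 and 959.9 CPM on EV in controls (log2 fold change -2.76 ± 0.15, adjusted p = 3.02e-06). *C32H11.4* (-2.28 ± 0.19) and *irg-5* (-1.79 ± 0.17) fell with it, and *dod-20* (2.55 ± 0.24) and *dod-21* (1.31 ± 0.33) rose. Of 111 C-type lectin genes 10 rose and 25 fell (9.01% and 22.5%). The lectin list gave 12 and 15 increases with 25 and 33 decreases without *hcf-1(-)* population 1 or 2, and 8 increases each with 11 and 15 decreases without control population 1 or 2. Beside *clec-17*, *clec-61* (2.96 ± 0.23) and *clec-72* (2.85 ± 0.36) rose, and beside *clec-190*, *clec-166* (-2.60 ± 0.24) and *clec-86* (-2.27 ± 0.19) fell. Lysozymes, saposin-like proteins and caenacins, which attack microbes directly, had 13 increases and 18 decreases among 75 (17% and 24%). Counts for the lysozyme, saposin and caenacin list were 13 and 19 increases with 20 and 25 decreases without *hcf-1(-)* population 1 or 2 and 9 and 8 increases with 8 and 11 decreases without control population 1 or 2. The saposin-like genes *spp-27* (4.36 ± 0.22), *spp-21* (4.11 ± 0.35) and *spp-9* (3.65 ± 0.27) rose, and *spp-4* (-1.45 ± 0.16) and *spp-25* (-1.34 ± 0.31) fell. *spp-27* had 49.99 and 66.4 CPM on *hda-1* RNAi and 64.9 and 62.0 CPM on EV in *hcf-1(-)* mutants, against 2.12 and 2.71 CPM on *hda-1* RNAi and 4.83 and 1.98 CPM on EV in controls. *dod-21* and *spp-25* lost their calls without at least 1 control population.

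**Figure D3:**
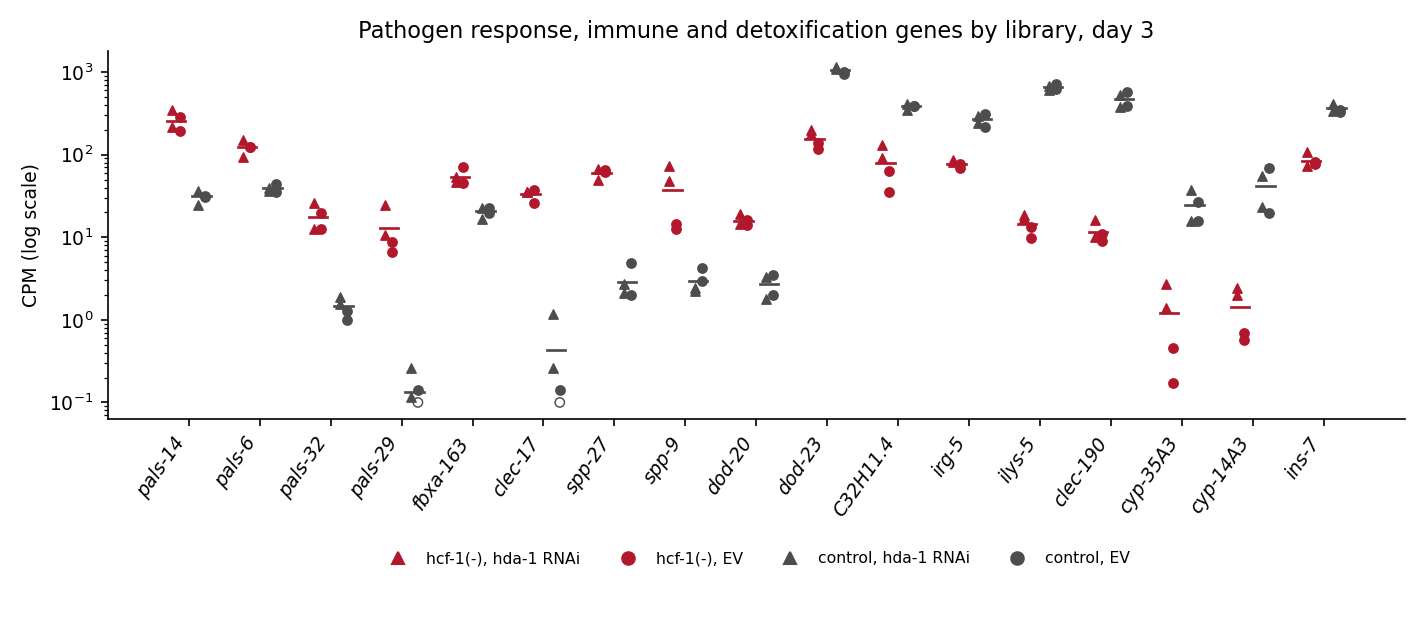
CPM (log axis) of pathogen response, immune and detoxification genes in each day 3 library, with *hcf-1(-)* mutants in red to the left of controls in grey, triangles for *hda-1* RNAi, circles for EV, bars for the mean of the 2 populations and open symbols for values under 0.1. The genotypes do not overlap for any gene shown; genes from *pals-14* to *dod-20* lie higher in the mutants and genes from *dod-23* to *ins-7* lower.

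Detoxification genes also moved both ways. Cytochrome P450s, the oxidases of the first phase of detoxification, had 10 increases and 20 decreases among 66 (15.2% and 30.3%). For the P450 list there were 9 and 12 increases without *hcf-1(-)* population 1 or 2 and 8 and 6 increases without control population 1 or 2. *cyp-33D3* (2.67 ± 0.24), *cyp-33C8* (1.37 ± 0.16) and *cyp-14A1* (1.12 ± 0.16) rose. *cyp-14A3*, a relative of *cyp-14A1*, fell, with 2.42 and 2.01 CPM on *hda-1* RNAi and 0.569 and 0.694 CPM on EV in *hcf-1(-)* mutants, against 23.3 and 55.2 CPM on *hda-1* RNAi and 68.7 and 19.4 CPM on EV in controls, and *cyp-35C1* (-3.11 ± 0.16) fell beside *cyp-35A3*. Glutathione and glucuronosyl transferases, the conjugating enzymes of the second phase, had 20 increases and 17 decreases among 103 (19% and 17%), with *ugt-18* (1.98 ± 0.31), *gsto-1* (1.77 ± 0.16) and *gst-14* (1.59 ± 0.30) up and *ugt-31* (-2.21 ± 0.24), *ugt-22* (-1.99 ± 0.21) and *ugt-25* (-1.52 ± 0.16) down. Calls in the transferase list were 21 and 23 increases with 11 and 29 decreases without *hcf-1(-)* population 1 or 2, and 8 and 9 increases with 7 decreases each without control population 1 or 2. The transferase list had 18 increases with 15 decreases in the *hda-1* RNAi libraries alone and 12 increases with 11 decreases in the EV libraries alone. *gst-14* lost its call without at least 1 control population. *gst-14* lost its call in the EV libraries alone.

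Of the list of SKN-1 targets, 7 of 16 rose and none fell (43.8% higher; median 0.21). The SKN-1 list gave 8 and 7 increases with 0 and 2 decreases without *hcf-1(-)* population 1 or 2, and 4 and 3 increases with no decrease without control population 1 or 2. The SKN-1 list had 7 increases in the *hda-1* RNAi libraries alone and 2 increases in the EV libraries alone. They were *gst-12* (2.16 ± 0.32), *gst-30*, *gst-14*, *gst-38* (1.18 ± 0.21), *skr-5* (1.01 ± 0.16), *gst-10* and *gst-4*. The reporter gene *gst-4* had 183.04 and 206 CPM on *hda-1* RNAi and 132 and 192 CPM on EV in *hcf-1(-)* mutants, against 103 and 111 CPM on *hda-1* RNAi and 143 and 128 CPM on EV in controls (log2 fold change 0.55 ± 0.16, adjusted p = 0.0435). Its libraries overlapped between the genotypes on EV. DAF-16 targets did not share a direction, with 5 higher and 6 lower of 19 (26.3% and 31.6%; median -0.28). Counts for the DAF-16 list were 5 increases with 8 decreases each without *hcf-1(-)* population 1 or 2 and 4 and 3 increases with 2 and 3 decreases without control population 1 or 2. The manganese superoxide dismutase gene *sod-3* stood at 44.0 and 70.1 CPM on *hda-1* RNAi and 59.4 and 70.8 CPM on EV in *hcf-1(-)* mutants, against 29.9 and 20.5 CPM on *hda-1* RNAi and 25.3 and 15.4 CPM on EV in controls (log2 fold change 1.37 ± 0.24, adjusted p = 0.004). The small heat shock genes *hsp-16.41* (2.26 ± 0.27) and *hsp-16.2* (1.96 ± 0.23), *hsp-70* (1.96 ± 0.18) and the metallothionein *mtl-1* (0.62 ± 0.16) rose as well. *dod-6* (-1.81 ± 0.14), the secreted protein gene *scl-20* (-2.0 ± 0.18), the lysozyme gene *lys-7* (-0.90 ± 0.14) and the noncoding RNA *tts-1* (-0.59 ± 0.12) fell. RNA of the factors themselves did not pass the test, with 50.99 to 62.1 CPM in the 4 *hcf-1(-)* libraries and 49.7 to 66.04 CPM in the 4 control libraries for *daf-16* (adjusted p = 0.872) and 48.8 to 59.6 CPM in the 4 *hcf-1(-)* libraries and 55.7 to 58.3 CPM in the 4 control libraries for *skn-1* (adjusted p = 0.683). None of the 16 genes of the insulin/IGF-1 pathway was called, with changes from -0.26 to 0.53 (edgeR; 1 at an unadjusted p under 0.05; 0 with DESeq2). Among 30 insulin-like peptides 3 were called, *ins-35* up and *ins-19* and *ins-7* down (3.33% and 6.67%, under the 6.95% and 7.76% of all genes). *ins-7*, a peptide known to activate the insulin receptor DAF-2, had 73.7 and 108 CPM on *hda-1* RNAi and 80.4 and 77.0 CPM on EV in *hcf-1(-)* mutants, against 408 and 341 CPM on *hda-1* RNAi and 332 and 352 CPM on EV in controls (log2 fold change -2.13 ± 0.16, adjusted p = 2.91e-05). *gst-14*, *gst-38*, *skr-5*, *gst-4*, *sod-3*, *mtl-1*, *lys-7* and *tts-1* lost their calls without at least 1 control population. *gst-12*, *gst-14*, *gst-4* and *mtl-1* lost their calls in the EV libraries alone.

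The mitochondrial genes that were called were mostly higher. The study names 10 mitochondrial genes together, of which the chaperone *hsp-6*, the usual reporter of mitochondrial stress, did not pass the test over both bacteria (log2 fold change 0.52 ± 0.26, adjusted p = 0.232). Its change was -0.19 on *hda-1* RNAi alone and 1.33 on EV alone, where it was called higher. That difference passed edgeR's test (-1.56 ± 0.25, adjusted p = 0.00112). Of the other 9, 4 rose and none fell (44.4%): the import channel gene *timm-23* (log2 fold change 1.55 ± 0.17, adjusted p = 0.000298), the translation factor gene *gfm-1* (log2 fold change 1.5 ± 0.24, adjusted p = 0.00293), and the fission factors *mff-2* (log2 fold change 1.40 ± 0.21, adjusted p = 0.00168) and *drp-1* (log2 fold change 1.05 ± 0.19, adjusted p = 0.00539). *timm-23* stood at 44.9 and 65.0 CPM on *hda-1* RNAi and 59.1 and 56.6 CPM on EV in *hcf-1(-)* mutants, against 19.2 and 20.4 CPM on *hda-1* RNAi and 17.6 and 17.4 CPM on EV in controls. The study chose these genes on libraries of the same series, so their direction is not independent evidence. The other 5 were higher in all 4 mutant libraries without passing the test, *tsfm-1* (log2 fold change 0.74 ± 0.23, adjusted p = 0.0572), *tufm-2* (log2 fold change 0.76 ± 0.32, adjusted p = 0.142), *tufm-1* (log2 fold change 0.67 ± 0.24, adjusted p = 0.0973), *scpl-4* (log2 fold change 0.53 ± 0.20, adjusted p = 0.106) and *tin-9.1* (log2 fold change 0.47 ± 0.18, adjusted p = 0.111). Proteins of the mitochondrial ribosome had 8 increases and 1 decrease among 68 (11.8% and 1.47%; median 0.35), with *mrps-17* (1.11 ± 0.18), *mrpl-28* (1.08 ± 0.21) and *mrpl-49* (1.06 ± 0.27) up and *mrps-23* (-0.92 ± 0.20) down. For the mitochondrial ribosome list there were 14 and 10 increases with 1 decrease each without *hcf-1(-)* population 1 or 2 and 1 and 3 increases with no decrease without control population 1 or 2. Nuclear genes of the respiratory chain and ATP synthase had 4 increases and no decrease among 53 (7.55%, near the 6.95% of all genes; median 0.09), such as *nduf-11* (0.66 ± 0.17). Calls in the respiratory chain list were 8 and 4 increases with 0 and 1 decreases without *hcf-1(-)* population 1 or 2, and no call without control population 1 or 2. The respiratory chain list had 1 increase in the *hda-1* RNAi libraries alone and 4 increases in the EV libraries alone. Of 12 genes of the mitochondrial genome 2 rose and none fell (median 0.50). The mitochondrial genome list gave 10 and 4 increases with 0 and 1 decreases without *hcf-1(-)* population 1 or 2, and no call without control population 1 or 2. The mitochondrial genome list had 2 increases in the *hda-1* RNAi libraries alone and 8 increases in the EV libraries alone. The chaperone *hsp-60* did not pass the test (log2 fold change 0.32 ± 0.29, adjusted p = 0.517). In the mitochondrial stress list only *timm-23* and *dnj-10* (0.85 ± 0.16) rose, 2 of 13. *drp-1*, *mrps-17*, *mrpl-28*, *mrpl-49*, *mrps-23*, *nduf-11* and *dnj-10* lost their calls without at least 1 control population. *nduf-11* lost its call in the *hda-1* RNAi libraries alone. *mrpl-49* and *mrps-23* lost their calls in the EV libraries alone.

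Of 18 genes of protein folding and stress in the endoplasmic reticulum 4 fell and none rose (22.2%; median -0.42), among them the chaperones *crt-1* (-0.87 ± 0.17) and *enpl-1* (-0.83 ± 0.13) and the disulfide isomerase *pdi-6* (-0.80 ± 0.15). Counts for the endoplasmic reticulum list were 1 increase with 8 decreases each without *hcf-1(-)* population 1 or 2 and no increase with 0 and 3 decreases without control population 1 or 2. In the cytosol *hsp-90* was slightly lower (-0.44 ± 0.13), but the list of 19 cytosolic heat shock proteins went more the other way (21.1% higher and 5.26% lower; median 0.18). Lysosomal proteases and the proton pump had 4 increases and 9 decreases among 44 (9.09% and 20.5%). The cathepsin B-like gene *cpr-2* (4.10 ± 0.31) rose, with 15.5 to 46.9 CPM in the 4 *hcf-1(-)* libraries and 1.28 to 2.46 CPM in the 4 control libraries, and *cpr-4* (-1.92 ± 0.17), *asp-14* (-1.72 ± 0.17) and *cpr-6* (-1.04 ± 0.16) fell. For the lysosomal list there were 5 and 6 increases with 10 and 16 decreases without *hcf-1(-)* population 1 or 2 and 2 and 3 increases with 3 and 4 decreases without control population 1 or 2. Nucleolar and ribosome biogenesis genes had 5 increases and no decrease among 17 (29.4%; median 0.38), such as *nst-1* (0.73 ± 0.15). Calls in the nucleolar list were 2 and 7 increases without *hcf-1(-)* population 1 or 2, and no increase without control population 1 or 2. The nucleolar list had 2 increases in the *hda-1* RNAi libraries alone and 4 increases in the EV libraries alone. Proteasome subunits had 2 decreases, *rpt-5* and *rpn-7*, among 33 (6.06%, under the 7.76% of all genes). No autophagy gene was called among 29 (edgeR; 6 at an unadjusted p under 0.05; 0 with DESeq2). The autophagy list gave 3 increases each without *hcf-1(-)* population 1 or 2, and no increase without control population 1 or 2. *crt-1*, *enpl-1*, *pdi-6*, *hsp-90* and *nst-1* lost their calls without at least 1 control population. *rpt-5* and *rpn-7* lost their calls without at least 1 population of each genotype. *hsp-90*, *rpt-5* and *rpn-7* lost their calls in the *hda-1* RNAi libraries alone. *hsp-90*, *rpt-5* and *rpn-7* lost their calls in the EV libraries alone.

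Of 89 collagens tested 8 rose and 14 fell (8.99% and 15.7%; median -0.02). Counts for the collagen list were 5 and 11 increases with 14 and 13 decreases without *hcf-1(-)* population 1 or 2 and 4 and 3 increases with 2 and 8 decreases without control population 1 or 2. The collagen list had 9 decreases in the *hda-1* RNAi libraries alone and 12 decreases in the EV libraries alone. *col-183* stood out, with 76.1 and 68.5 CPM on *hda-1* RNAi and 29.7 and 44.7 CPM on EV in *hcf-1(-)* mutants, against 725 and 359.6 CPM on *hda-1* RNAi and 405 and 336 CPM on EV in controls (log2 fold change -3.09 ± 0.23, adjusted p = 3.03e-05). The hedgehog-related and patched-related genes, which act in the skin and in molting, had 8 decreases and no increase among 50 (16%), led by *grd-4* (-1.19 ± 0.20), *grd-14* (-1.15 ± 0.22) and *ptr-14* (-1.07 ± 0.22). For the hedgehog-related list there were 0 and 3 increases with 8 decreases each without *hcf-1(-)* population 1 or 2 and no increase with 3 and 2 decreases without control population 1 or 2. The hedgehog-related list had 7 decreases in the *hda-1* RNAi libraries alone and 5 decreases in the EV libraries alone. Of 19 molting genes 3 fell, among them *nas-37* (-0.82 ± 0.19) and *noah-1* (-0.86 ± 0.23). Of 10 hypodermis markers, which mark the tissue that makes the cuticle, 6 had enough reads. All 6 were lower, 1 of them called (median -0.30), and the list summed to 923 to 1228 CPM in mutants and 1040 to 1387 CPM in controls. The marker list shares the collagen gene *col-119* (-0.03) with the collagen list, so the lists are not separate measures. Their part in the lower collagen, hedgehog-related and molting genes was not tested. *grd-14*, *ptr-14*, *nas-37* and *noah-1* lost their calls without at least 1 control population. *nas-37* and *noah-1* lost their calls in the *hda-1* RNAi libraries alone. *grd-14* and *noah-1* lost their calls in the EV libraries alone.

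Chromatin genes other than histones were called at shares near or under those of all genes (6.95% higher and 7.76% lower). The share was 8.33% higher in HDA-1 partner complexes, and 5.88% higher and 5.88% lower in H3K4 methylation. No gene of the 12 histone deacetylases passed the test (edgeR; 1 at an unadjusted p under 0.05; 0 with DESeq2), and *spr-1* was the only called gene of 12 in HDA-1 partner complexes (log2 fold change 0.70 ± 0.21, adjusted p = 0.0485). Among 17 genes of H3K4 methylation, the methyltransferase gene *set-2* rose (log2 fold change 0.69 ± 0.19, adjusted p = 0.0396) and *set-30*, a SET domain gene on chromosome X, fell, with 6.49 to 8.15 CPM in the 4 *hcf-1(-)* libraries and 33.3 to 48.5 CPM in the 4 control libraries (log2 fold change -2.56 ± 0.20, adjusted p = 4.16e-05). *set-26* (log2 fold change 0.46 ± 0.22, adjusted p = 0.193) and its near copy *set-9* (log2 fold change 1.15 ± 0.42, adjusted p = 0.0955) did not pass the test. Of 18 histone genes with enough reads in this polyadenylated RNA 5 fell and none rose (27.8% lower; median -0.61), such as *his-38* (-2.77 ± 0.34) and *his-37* (-0.70 ± 0.15). Calls in the histone list were 7 and 6 decreases without *hcf-1(-)* population 1 or 2, and 3 decreases each without control population 1 or 2. Of the germline and oocyte markers 18 of 24 had enough reads, 3 were higher and 3 were lower. *syp-1*, a protein of the meiotic synaptonemal complex, stood at 15.1 and 8.69 CPM on *hda-1* RNAi and 13.9 and 7.90 CPM on EV in *hcf-1(-)* mutants, against 1.53 and 0.775 CPM on *hda-1* RNAi and 1.85 and 1.27 CPM on EV in controls (log2 fold change 3.04 ± 0.37, adjusted p = 0.000529). *glh-4* (log2 fold change 3.07 ± 0.70, adjusted p = 0.0156) and *egg-3*, with 39 reads in the mutant libraries and 3 in the control libraries, were higher, and *nos-2* (log2 fold change -2.64 ± 0.61, adjusted p = 0.0175), *perm-2* (-0.56 ± 0.15) and *perm-4* (-0.52 ± 0.13) were lower. The germline list gave 1 increase each with 4 and 3 decreases without *hcf-1(-)* population 1 or 2, and 2 increases each with no decrease without control population 1 or 2. The summed level of these markers was 4168 to 5524 CPM in mutants and 6366 to 7301 CPM in controls, nearly all from *perm-2* and *perm-4*. Their part in the other results was not tested. The neuron list summed to 1476 to 1712 CPM in mutants and 1532 to 1701 CPM in controls with none of 14 called (edgeR; 0 at an unadjusted p under 0.05; 0 with DESeq2), and the intestine list to 4186 to 5028 CPM in mutants and 4156 to 4844 CPM in controls with 1 of 10 up and 1 down. The pharynx list summed to 227 to 262 CPM in mutants and 193 to 222 CPM in controls with none of 8 called (edgeR; 2 at an unadjusted p under 0.05; 0 with DESeq2), and the coelomocyte list to 61.5 to 71.3 CPM in mutants and 76.1 to 85.3 CPM in controls with none of 3 called (edgeR; 1 at an unadjusted p under 0.05; 0 with DESeq2). The sums of both lists did not overlap between the genotypes. *his-37*, *glh-4*, *egg-3*, *perm-2* and *perm-4* lost their calls without at least 1 control population. *spr-1* and *set-2* lost their calls without at least 1 population of each genotype. *spr-1*, *perm-2* and *perm-4* lost their calls in the *hda-1* RNAi libraries alone. *spr-1* and *set-2* lost their calls in the EV libraries alone. *spr-1*, *set-2* and *egg-3* lost their calls with DESeq2.

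The next question was whether *hda-1* RNAi changed what the loss of *hcf-1* did. Fitted on its own, the *hda-1* RNAi arm gave 747 higher and 737 lower genes (12.0% of 12335 tested) and the EV arm 745 higher and 787 lower (12.7% of 12060). The difference between the effects was tested directly, with each population as a block, and passed for 31 of 12864 genes (0.241%), 10 with a higher effect on *hda-1* RNAi and 21 with a lower one. DESeq2 called 7, and an edgeR fit without the block called 0 (376 genes at an unadjusted p under 0.05, against 765 with the block). The caenacin gene *cnc-6* had the smallest p. Its effect was 1.21 ± 0.27 on *hda-1* RNAi and 3.38 ± 0.36 on EV, a difference of -2.09 ± 0.25 (adjusted p = 3.19e-05). *cnc-6* stood at 47.8 and 90.8 CPM on *hda-1* RNAi and 57.7 and 151 CPM on EV in *hcf-1(-)* mutants, against 31.4 and 28.7 CPM on *hda-1* RNAi and 11.5 and 8.64 CPM on EV in controls, so *hda-1* RNAi went with a higher level in both control populations and a lower level in both mutant populations. The triosephosphate isomerase gene *tpi-1* differed by -3.27 ± 0.40 (adjusted p = 3.47e-05), but its mutant populations lay far apart, with 3.23 and 15.1 CPM on *hda-1* RNAi and 7.51 and 60.4 CPM on EV in *hcf-1(-)* mutants, against 10.7 and 24.6 CPM on *hda-1* RNAi and 6.81 and 4.53 CPM on EV in controls.

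The set also held heat shock genes. The effect on *hsp-16.41* was 1.09 ± 0.31 on *hda-1* RNAi and 3.08 ± 0.24 on EV, a difference of -1.98 ± 0.26 (adjusted p = 7.56e-05), and *hsp-16.2* differed the same way (-1.15 ± 0.23, adjusted p = 0.0186). *hsp-16.41* had 23.8 and 39.7 CPM on *hda-1* RNAi and 92.1 and 114 CPM on EV in *hcf-1(-)* mutants, against 19.4 and 10.5 CPM on *hda-1* RNAi and 14.6 and 10.1 CPM on EV in controls. The mitochondrial chaperone *hsp-6* had an effect of -0.19 ± 0.28 on *hda-1* RNAi (adjusted p = 0.729) and 1.33 ± 0.26 on EV (adjusted p = 0.00193), and the difference of -1.56 ± 0.25 passed the test (adjusted p = 0.00112). *hsp-6* stood at 33.9 and 70.3 CPM on *hda-1* RNAi and 65.7 and 112 CPM on EV in *hcf-1(-)* mutants, against 53.6 and 66.2 CPM on *hda-1* RNAi and 42.9 and 28.6 CPM on EV in controls. In the other direction, *spp-9* rose more on *hda-1* RNAi (4.69 ± 0.30) than on EV (1.92 ± 0.33), with a difference of 2.72 ± 0.40 (adjusted p = 0.000459). *C32H11.4* (1.23 ± 0.20, adjusted p = 0.00206) and *dhs-26* (1.1 ± 0.24, adjusted p = 0.039) fell less on *hda-1* RNAi. No vitellogenin and no *pals* gene was among the 31. With only 0.241% of all genes passing, lists of this size would mostly hold none, so this does not set them apart. The median change of the vitellogenins was -2.45 on *hda-1* RNAi and -2.99 on EV. Of the mitochondrially encoded genes, 2 of 12 had a lower effect on *hda-1* RNAi. The count was 94, 35, 88 and 100 when control population 1 or 2 or *hcf-1(-)* population 1 or 2 was left out.

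**Figure D4:**
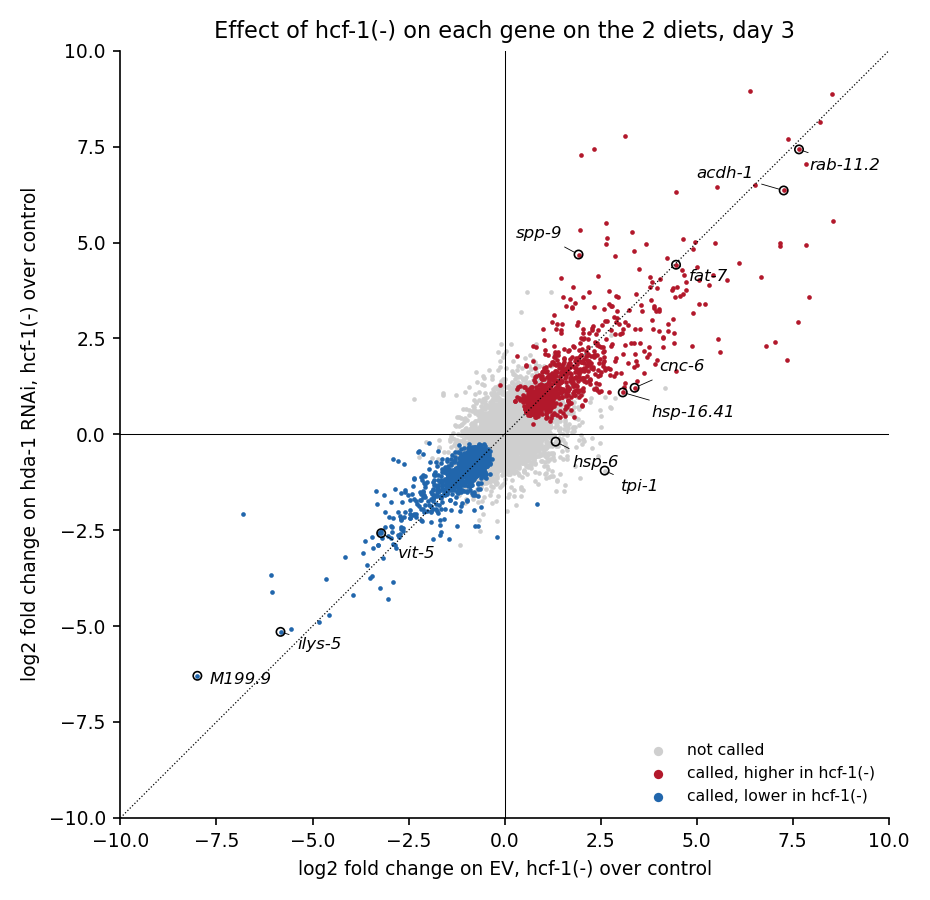
Log2 fold change of each gene tested on both bacteria, *hcf-1(-)* over control, on *hda-1* RNAi (y axis) and on EV (x axis), with genes called over both bacteria in red (higher) and blue (lower) and the dotted line at equal effects. Named genes are ringed; *hsp-6* (-0.19 on *hda-1* RNAi and 1.33 on EV), *tpi-1*, *hsp-16.41* and *cnc-6* lie below the line and *spp-9* above it.

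The day 3 effect was then set beside that of other days on EV. At day 1 the test called 12.5% of 12015 genes and at day 12 it called 3.22% of 13174. These days share the worm populations of day 3, so only the tests of the difference bear on a change with age. Between day 3 and day 1 the effect differed for 112 of 13106 genes (0.855%), 46 with a higher and 66 with a lower effect at day 3. This count was 0 without *hcf-1(-)* population 1 or 2 (edgeR; 661 and 763 genes at an unadjusted p under 0.05) and 554 or 1025 without control population 1 or 2, and 287 with DESeq2 on all populations. *acdh-1* had the smallest p. Its effect was 7.26 ± 0.26 at day 3 and 1.27 ± 0.43 at day 1, a difference of 5.86 ± 0.29 (adjusted p = 0.000524). At day 3 on EV it had 4192 and 5783 reads in mutants and 27 and 18 reads in controls, against 8416 and 10686 reads in mutants and 3895 and 1526 reads in controls at day 1. *C32H11.4* was less reduced at day 3 (-2.94 ± 0.24) than at day 1 (-7.74 ± 0.46), a difference of 4.80 ± 0.24 (adjusted p = 0.000524). The vitellogenins *vit-2* (2.36 ± 0.21, adjusted p = 0.0059), *vit-6* (2.01 ± 0.18, adjusted p = 0.0059) and *vit-5* (1.75 ± 0.23, adjusted p = 0.0237) were also less reduced at day 3. Collagens went the other way. *col-71* had 3036 and 2117 reads in mutants and 59 and 55 reads in controls at day 1, and its effect was -0.17 ± 0.41 at day 3 and 4.99 ± 0.32 at day 1 (difference -5.15 ± 0.31, adjusted p = 0.00131). Of the collagens, 66 were higher and 11 lower of 128 tested at day 1, and the difference between the days passed for 13 with a lower and 2 with a higher effect at day 3.

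Between day 12 and day 3 the effect differed for 436 of 13617 genes (3.20%), 283 with a higher and 153 with a lower effect at day 12, and for 158 to 904 genes when 1 population was left out. Several of the strongest day 3 effects were smaller at day 12. *C30H6.12* had an effect of -0.10 ± 0.30 at day 12 and 4.92 ± 0.30 at day 3 (difference -4.94 ± 0.35, adjusted p = 0.000109). Its reads at day 12 were 1692 and 914 in mutants and 650 and 837 in controls, against 482 and 507 in mutants and 10 and 13 in controls at day 3, so the control reads were higher at day 12. *acdh-1* differed by -5.21 ± 0.80 (adjusted p = 0.00567) and *clc-32* by -6.2 ± 0.75 (adjusted p = 0.00146). The lysozyme *ilys-5* had an effect of -1.2 ± 0.52 at day 12 (adjusted p = 0.241) and -5.83 ± 0.24 at day 3 (difference 4.74 ± 0.50, adjusted p = 0.000883). *col-183* and *C17H12.6* passed the test with opposite signs. *col-183* was 2.16 ± 0.40 at day 12 and -3.30 ± 0.23 at day 3 (difference 5.49 ± 0.37, adjusted p = 0.000109), and *C17H12.6* was 3.19 ± 0.52 at day 12 and -2.37 ± 0.24 at day 3 (difference 5.67 ± 0.46, adjusted p = 0.000331). The infection response gene *irg-5* had an effect of 1.84 ± 0.45 at day 12 (adjusted p = 0.0656), against -1.86 ± 0.21 at day 3 (difference 3.72 ± 0.43, adjusted p = 0.0012). Of the 24 members of its list of CUB-like and infection response genes, tested or not, 9 had a higher effect at day 12 and none a lower one. Over all genes it was 283 higher of 13617 tested. *rab-11.2* was higher at day 12 too (5.16 ± 0.42, adjusted p = 0.00229), with 1067 and 482 reads in mutants and 8 and 15 reads in controls at day 12, and its difference between the days did not pass the test (-2.45 ± 0.65, adjusted p = 0.0742).

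**Figure D5:**
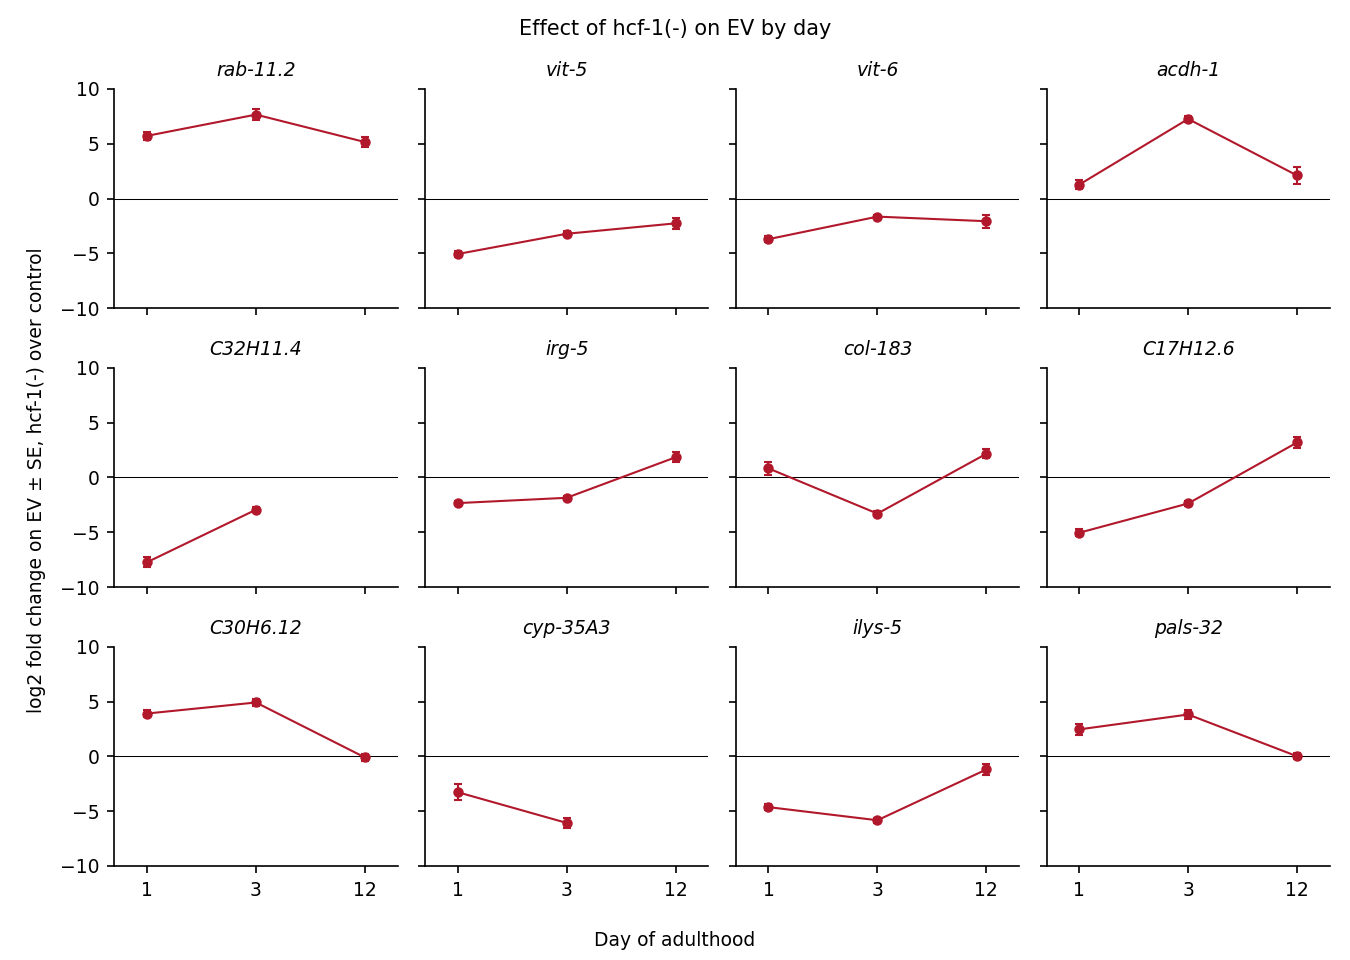
Log2 fold change on EV (± SE), *hcf-1(-)* over control, of 12 genes at days 1, 3 and 12 of adulthood, drawn at equal spacing, with no point where a gene had too few reads to be tested. *acdh-1* peaks at day 3, *col-183*, *C17H12.6* and *irg-5* cross 0 between days 3 and 12, and *rab-11.2* is above 0 at each day.

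Last, *hcf-1(-)* was tested directly against *set-26(-)* at day 3, over 2 populations each. Of 13775 genes 337 were higher and 611 lower in *hcf-1(-)* (6.88%), and 342 to 1559 genes were called when 1 population was left out. *T07H8.11* (4.83 ± 0.25), *pals-29* (4.01 ± 0.42), *spp-27* (3.99 ± 0.33), *rab-11.2* (3.99 ± 0.28) and *ptp-5.3* (3.53 ± 0.27) were highest in *hcf-1(-)* relative to *set-26(-)*. *rab-11.2* had 646 and 489 reads on *hda-1* RNAi and 897 and 543 reads on EV in *hcf-1(-)*, against 64 and 35 reads on *hda-1* RNAi and 16 and 23 reads on EV in *set-26(-)*. *Y49G5A.1* (-6.83 ± 0.29), *F59C6.18* (-5.70 ± 0.22), *F57G8.7* (-5.68 ± 0.28), and *M199.9* (-5.36 ± 0.33) were among the lowest. They were ranked by the same rule as above, and the highest adjusted p of these 9 genes was 0.00107. *M199.9* had 16 and 27 reads on *hda-1* RNAi and 5 and 9 reads on EV in *hcf-1(-)*, against 416 and 736 reads on *hda-1* RNAi and 299 and 571 reads on EV in *set-26(-)*. By list, 13 of 38 *pals* genes were higher in *hcf-1(-)* than in *set-26(-)* and none was lower. Of 16 SKN-1 targets 5 were higher and none was lower. Of 74 cytochrome P450s 20 were lower and 2 higher, of 176 collagens 23 were lower and 2 higher, and of 116 transferases 26 were lower and 10 higher. These list sizes count all members, tested or not. Over all 13775 genes tested, more were lower (611) than higher (337) as well. *acdh-1* was lower in *hcf-1(-)* than in *set-26(-)* (-2.03 ± 0.17, adjusted p = 0.00026) and *fat-7* was higher (2.81 ± 0.22, adjusted p = 0.000248). For *vit-5* the difference did not pass the test (-0.41 ± 0.17, adjusted p = 0.203). Much of the day 3 effect was shared when *set-26(-)* was fitted against the same controls. Of 1890 genes called in *hcf-1(-)* and tested in *set-26(-)*, 1190 were called there in the same direction and 42 in the opposite one. The 2 fits share their control libraries, which by itself favors the same direction.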

How the data were processed

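RNA of whole worms was sequenced with the QuantSeq 3′ kit. The authors trimmed reads with Trim Galore 0.6.5, aligned them to WBcel235 with STAR 2.7.9a, kept single-place reads with few mismatches and deposited stranded raw counts per gene, without normalization. The annotation release is not given in the sources used here. Counts of the *hda-1* RNAi and EV libraries of each population were added up and fitted in edgeR 4.0.16 (R 4.3.3, TMM, quasi-likelihood test), with Benjamini-Hochberg adjustment over genes with more than 10 reads in at least 2 sums. The standard error is the change divided by the square root of F. Differences of effects were fitted on single libraries with the population as a block. Same-numbered libraries of a genotype share a population by the labels and methods, and their deviations correlated across bacteria (0.33 in *hcf-1(-)*, 0.14 in controls). The 8 libraries held 7680222 to 10147124 reads each, and the number of populations limits precision. Alternatives used DESeq2 1.42.0, limma 3.58.1, other normalization, no filter, other libraries, no block, and 1 population left out. Fits were tested on simulated data. Positions and symbols come from Ensembl 115 and the name table (44113 of 46934 genes). Counting intervals and floors of 3 reads cover counting error only.

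Members and lists were chosen with earlier results of these data known. Named genes were the mutated and targeted genes, the mitochondrial genes the study names, the 12 highest and 12 lowest genes, up to 3 each way per list, the 3 with the smallest p per difference and the 5 each way against *set-26(-)*, all called, averaging 50 reads or more a library and, for the ranked ones, not overlapping. Named after their values were seen were the other *vit* and *fat* genes, *elo-5*, *pals-5*, *pals-6*, *pals-11*, *pals-22*, *pals-25*, *daf-16*, *skn-1*, *gst-4*, *gst-12*, *tts-1*, *hach-1*, *hphd-1*, *alh-8*, *glh-4*, *egg-3* and *nos-2*, and members of the difference tests beyond the smallest p.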

Additional observations from a re-analysis of the deposited data

Results flagged for a closer look

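In groups of 4 libraries, the gap of the most distant library was compared with the group's range for 39 genes in each genotype, 78 groups in all, where chance marks about 1 group in 20. A single group was marked, which is under that rate. It mixes both bacteria, between which *hda-1* reads differed, so the rate does not hold for it. *hda-1* read 1282 CPM in the control *hda-1* RNAi library of replicate 2, against 226 CPM in that of replicate 1 and 19.02 and 22.9 CPM on EV.

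The effect of *hcf-1(-)* differed between the bacteria for *cnc-6* (-2.09), *tpi-1* (-3.27), *hsp-16.41* (-1.98) and *hsp-6* (-1.56), as *hda-1* RNAi minus EV on the log2 scale in edgeR's test of the difference.

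The effect differed between day 3 and day 1 for *acdh-1* (5.86), *C32H11.4* (4.80), *col-71* (-5.15) and *cyp-14A3* (-7.55), as day 3 minus day 1. *cyp-14A3* had 8 and 10 reads in mutants and 0 and 4 reads in controls at day 1, so its day 1 effect rests on few reads.

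Between day 12 and day 3 the effect became higher for *col-183* (5.49), *C17H12.6* (5.67), *M199.9* (3.36), *ilys-5* (4.74), *clec-190* (3.95), *ins-19* (2.65), *cyp-14A3* (5.52), *cyp-35A3* (5.2) and *nspc-17* (3.42), of which only *col-183* and *C17H12.6* were above 0 at day 12 in their own test. It became lower for *C30H6.12* (-4.94), *clc-32* (-6.2), *acdh-1* (-5.21), *F07E5.9* (-5.25), *C54F6.17* (-3.79) and *clc-11* (-3.0).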

How the results depend on the processing

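The 14.7% of genes called at day 3 came to 3293 genes (1703 higher, 1590 lower) without the replicate block, where the *hda-1* RNAi and EV libraries count as independent, against 1998 over population sums; to 738 to 2999 with 1 population left out; and to 1597 to 2171 with 1 library left out, an alternative chosen after seeing the data. DESeq2 (1898), its size factors in edgeR (2007), no filter (2602), a random-effect block in limma (2630), a block by replicate number across genotypes (1944) and a fit with the third genotype (2377) stayed within 1.5 times. The sources tie no mutant population to a control population, and the deviations of same-numbered populations correlated by 0.04, although number 1 lay above number 2 on the second principal component in all 4 groups. That block lost the calls of *ftn-2*, *gst-4*, *hsp-90*, *nuo-2*, *pcyt-1*, *rpn-7*, *rpt-5* and *ttr-34*. Of the 201 named genes called, 109 were called under every alternative that tested them and did not leave out a single library, 80 lost the call without control population 1 and 68 without control population 2, and no called gene changed sign.

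The difference between the bacteria was called for 31 genes, for 7 with DESeq2, 87 with no filter, 0 without the replicate block and 35 to 100 with 1 population left out. The difference between day 3 and day 1 gave 112 genes, 287 with DESeq2, 938 with no filter, 63 without the replicate block and 0 to 1025 with 1 population left out. Between day 12 and day 3 it gave 436 genes, 922 with no filter, 277 without the replicate block and 158 to 904 with 1 population left out. Against *set-26(-)* there were 948 genes, 1820 with no filter, 2102 without the replicate block and 342 to 1559 with 1 population left out. The cause of these shifts was not tested.

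The log2 fold changes that changed sign were all of genes not called. *pals-22* was -0.018 and *daf-16* 0.026 in the EV libraries alone, and *hsp-6* was -0.19 and *tpi-1* -0.95 in the *hda-1* RNAi libraries alone. With 1 population left out, *hda-1* ranged -0.61 to 1.76, *hsp-60* -0.019 to 0.76, *daf-16* -0.16 to 0.060, *hsp-6* -0.014 to 0.93, *tpi-1* -1.22 to 1.73 and *pals-22* -0.053 to 0.54. Only 13586 of 46934 genes had enough reads to be tested at this depth.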

Other observations

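Of 21 muscle filament genes 2 rose, the myosin heavy chain gene *myo-3* (1.03 ± 0.18) and the troponin T gene *tnt-3* (0.83 ± 0.19), and 4 fell, among them the troponin I gene *tni-3* (-0.83 ± 0.16), the troponin C gene *pat-10* (-0.78 ± 0.19) and a further troponin T gene, *tnt-2* (-0.70 ± 0.15). Counts for the muscle list were 2 and 6 increases with 7 and 5 decreases without *hcf-1(-)* population 1 or 2 and 0 and 1 increases with no decrease without control population 1 or 2. *myo-3* stood at 195 and 144 CPM on *hda-1* RNAi and 195 and 164 CPM on EV in *hcf-1(-)* mutants, against 71.7 and 91.2 CPM on *hda-1* RNAi and 78.2 and 94.9 CPM on EV in controls. Troponin T genes thus moved both ways in the same worms. Among 80 cytosolic ribosomal proteins 3 were called (2.50% higher and 1.25% lower, against 6.95% and 7.76% of all genes), with a median of -0.02. They were the higher paralogs *rpl-11.1* (1.53 ± 0.20) and *rpl-24.2* (0.72 ± 0.15), and *rpl-41.1*, which was lower (-0.59 ± 0.15). For the cytosolic ribosome list there were 2 and 7 increases with 4 and 1 decreases without *hcf-1(-)* population 1 or 2 and 1 increase each with no decrease without control population 1 or 2. The glycolytic aldolase gene *aldo-1* was the only called gene of 44 in glycolysis, gluconeogenesis and the TCA cycle (2.27% higher, under the 6.95% of all genes). *aldo-1* had 229 and 197 CPM on *hda-1* RNAi and 276 and 195 CPM on EV in *hcf-1(-)* mutants, against 96.1 and 92.0 CPM on *hda-1* RNAi and 111 and 98.7 CPM on EV in controls (log2 fold change 1.14 ± 0.16, adjusted p = 0.0015). Calls in the glycolysis and TCA cycle list were 6 and 4 increases with 1 and 4 decreases without *hcf-1(-)* population 1 or 2, and 1 increase each with no decrease without control population 1 or 2. *myo-3*, *tnt-3*, *tni-3*, *pat-10*, *tnt-2*, *rpl-24.2* and *rpl-41.1* lost their calls without at least 1 control population. *rpl-41.1* lost its call in the *hda-1* RNAi libraries alone. *rpl-24.2* and *rpl-41.1* lost their calls in the EV libraries alone.

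Of 98 neuropeptide genes 6 rose and 10 fell (6.1% and 10.2%, against 6.95% and 7.76% of all genes). The antimicrobial-type peptide gene *nlp-30* (1.51 ± 0.29) and *nlp-34* (1.27 ± 0.24), which the skin makes, rose with *nlp-78* (1.2 ± 0.20), and *nlp-59* (-1.17 ± 0.29), *flp-8* (-1.07 ± 0.20) and *nlp-24* (-0.93 ± 0.18) fell. The neuropeptide list gave 7 and 11 increases with 11 and 10 decreases without *hcf-1(-)* population 1 or 2, and 1 and 2 increases with 1 and 2 decreases without control population 1 or 2. The neuropeptide list had 4 decreases in the *hda-1* RNAi libraries alone and 9 decreases in the EV libraries alone. *nlp-34* had 102.3 and 57.2 CPM on *hda-1* RNAi and 86.2 and 50.6 CPM on EV in *hcf-1(-)* mutants, against 31.8 and 27.3 CPM on *hda-1* RNAi and 28.2 and 33.4 CPM on EV in controls. Transthyretin-related genes had 4 increases and 12 decreases among 48 (8.33% and 25.0%), with *ttr-46* (-1.17 ± 0.22) and *ttr-42* (0.97 ± 0.19) at the ends of the well-expressed members. Counts for the transthyretin list were 3 and 6 increases with 12 and 16 decreases without *hcf-1(-)* population 1 or 2 and 2 and 1 increases with 1 and 5 decreases without control population 1 or 2. Nuclear hormone receptors, transcription factors of which many bind lipid-like ligands, had 8 increases and 4 decreases among 176 (4.55% and 2.27%), such as *nhr-57* (1.02 ± 0.21) and *nhr-99* (-1.18 ± 0.24). For the receptor list there were 8 and 9 increases with 3 and 14 decreases without *hcf-1(-)* population 1 or 2 and 1 increase each with 0 and 1 decreases without control population 1 or 2. The receptor list had 5 increases with no decrease in the *hda-1* RNAi libraries alone and 6 increases with 2 decreases in the EV libraries alone. Among 16 metal handling genes *cdr-4* (1.54 ± 0.18) rose most of the well-expressed members and *cdr-6* (-1.04 ± 0.15) fell most, and of 21 antioxidant genes *prdx-3* (0.66 ± 0.15) rose beside *sod-3* and *gpx-5* fell (-0.76 ± 0.15). *nlp-30*, *nlp-34*, *nlp-78*, *nlp-59*, *flp-8*, *nlp-24*, *ttr-46*, *ttr-42*, *nhr-57*, *nhr-99*, *prdx-3*, *sod-3* and *gpx-5* lost their calls without at least 1 control population. *nlp-59*, *nhr-99*, *prdx-3* and *gpx-5* lost their calls in the *hda-1* RNAi libraries alone.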
